A study of Mus musculus with 4 samples.

Results

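The leukocyte integrins around the CD11b sort were 10 genes named by symbol: the α chains Itgam, Itgax, Itgal, Itgad, Itga4, Itga6 and Itgae and the β chains Itgb1, Itgb2 and Itgb7. All 10 were found among the 31053 genes of both count matrices, and they were picked by symbol, with no threshold on a measured value, though with earlier results of these data known. The data were single-cell RNA counts of ovarian cells from wild-type virgin C57BL/6J mice, sorted for the surface proteins CD45 and CD11b, the latter being the product of Itgam. The younger group is labelled 3 months and the older 15 months, whereas tissue was taken, by the protocol, at 2 to 3 or at 14 to 17 months, and no animal was treated. Each age had 3 pools of cells, each marked with its own hashtag antibody. By the protocol the 3-month pools held 2 animals each (6 in all) and the 15-month pools came from 5 animals, so that 1 pool held a single mouse, whereas the design text gives 2 mice for every pool. All 3 pools of an age went together through a single sort into a single Chromium 3′ library, so age and library cannot be told apart, and every p below measures the spread between pools.

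Integrins are surface receptors made of 1 α and 1 β chain, which bind matrix proteins or ligands on other cells after signals from inside the cell have switched them to an open form. The β2 chain (Itgb2) is restricted to leukocytes and pairs with αL (Itgal, LFA-1), αM (Itgam, Mac-1), αX (Itgax, CD11c) and αD (Itgad); the pairs bind intercellular adhesion molecules, and αM and αX also bind complement fragments. The α4 chain (Itga4) pairs with β1 (Itgb1, to bind VCAM-1 and fibronectin) or β7 (Itgb7, to bind the gut addressin), αE (Itgae, CD103) pairs with β7 to bind E-cadherin, and α6 (Itga6) pairs with β1 or β4 as a laminin receptor. In the ovary CD11b is commonly used to sort macrophages, monocytes and granulocytes, and it is also known on NK cells and on some B cells.

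Of the β2 partners, 4 lie in 1 region of mouse chromosome 7 in GRCm38 (GENCODE M21), all on the plus strand: Itgal at chr7:127296260-127335138, Itgam at chr7:128062640-128118491, Itgax at chr7:128129547-128150657 and Itgad at chr7:128154376-128223816. Only 11055 bases separate the end of Itgam from the start of Itgax, and 3718 bases separate Itgax from Itgad. The others are spread over the genome: Itga6 at chr2:71745616-71858416 and Itga4 at chr2:79255426-79333123, Itgb1 at chr8:128685654-128733200, Itgb2 at chr10:77530252-77565708 and Itgae at chr11:73090583-73147446, all on the plus strand, and Itgb7 at chr15:102215995-102231944 on the minus strand. A predicted same-strand gene, Gm49368, shares 3450 exonic bases with Itgam, and reads in shared bases could not be given to either. It collected 275 UMIs (unique molecular identifiers, 1 per captured RNA molecule) in the kept cells against 7368 of Itgam. Itga4 shares 1124 exonic bases with Cerkl and Itgad shares 102 with Gm39091 and 70 with Cox6a2, in each case on the opposite strand.

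The sequences upstream of Itgam and Itgax are shown because these neighbouring genes had unlike levels in mature dendritic cell-like cells and in cluster 6 described below, though not in every dendritic class. RefSeq (GRCm38.p6) promoter sequences were matched for 5 of the 10 members, and the 250 bases before the start are given 5′ to 3′ for chr7:128062390-128062639 and chr7:128129300-128129549, both on the plus strand. Capitals mark GAGGAA on either strand, the core to which the myeloid factor PU.1 is known to bind.
Itgam: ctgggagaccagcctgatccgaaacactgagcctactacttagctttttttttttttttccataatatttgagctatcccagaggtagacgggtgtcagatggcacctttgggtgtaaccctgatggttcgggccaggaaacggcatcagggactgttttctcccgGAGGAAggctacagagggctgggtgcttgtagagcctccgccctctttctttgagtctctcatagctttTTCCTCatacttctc
Itgax: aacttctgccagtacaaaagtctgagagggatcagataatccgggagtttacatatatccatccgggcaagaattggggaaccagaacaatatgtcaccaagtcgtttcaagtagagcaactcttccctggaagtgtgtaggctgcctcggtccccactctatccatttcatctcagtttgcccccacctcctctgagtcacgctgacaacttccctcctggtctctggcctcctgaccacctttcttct
The Itgam window held 2 matches, 1 on each strand, and the Itgax window none. By count, 23.3% of 32851 mouse promoter windows of this length hold at least 1 match. A second motif, TGTGGT, known for RUNX factors, was in neither window, so no matches overlapped, and in 14.0% of all windows. These matches are a description of the letters and no binding was measured. The hashtag oligonucleotides that separate the pools were the following, the same 3 for both ages.
Pool 1: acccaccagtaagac
Pool 2: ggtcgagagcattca
Pool 3: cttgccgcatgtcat

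The 3-month library held 3135 barcodes and the 15-month library 4939, with median depths of 7472 and 6949 UMIs. The libraries shared 3 barcodes (0.096% and 0.061% of each). After hashtag calling and the filter (at least 500 genes, at least 1000 gene UMIs and at most 10% mitochondrial UMIs) 1837 and 3833 cells with a single hashtag remained, 449 to 2205 in a pool. Haemoglobin made up 0.301% to 1.73% of UMIs in the 3-month pools and 0.003% to 0.026% in the 15-month pools. Clusters made without the 10 integrins were named from marker genes into 13 classes, and 3 clusters stayed unnamed: cluster 0 (Ccr2, Ms4a4c), cluster 6 (Xcr1, Clec9a and Naaa, genes of type 1 dendritic cells, beside 4 haemoglobin genes) and cluster 9 (Acod1 and Il1f9, with few UMIs). The label of myeloid cells did not cover all of them: 387 cells were NK cell-like, 251 B cell-like, 125 T cell-like, 312 stroma or fibroblast-like and 63 endothelial-like, of 5670. Ptprc, which encodes CD45, had a UMI in 42.0% of stroma-like and 14.3% of endothelial-like cells. The share was 58.3% in mast cell or basophil-like and 81.8% in mature dendritic cell-like cells. It was 86.3% to 99.2% in B, T, NK, monocyte, macrophage and neutrophil cells, cDC2-like cells, cycling cells and clusters 0, 6 and 9.

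Levels are given in CPM, the the usual scaling of a gene’s UMIs to a common UMI total, here that of the class in a pool, as mean ± SD over pools with at least 10 cells of that class. Because only 3′ ends were counted, these values do not scale with transcript length, but capture may differ between genes. Classes come from the same cells, so levels between classes are described and not tested. Most integrins were present in most classes, yet their peaks differed among the 14 classes with at least 3 such pools: Itgam in neutrophil-like cells, Itgal, Itga4 and Itgb2 in non-classical monocyte-like cells, Itgax in cDC2-like (type 2 dendritic) and NK cell-like cells, Itga6 and Itgb1 in endothelial-like cells and Itgae in cluster 6.

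**Figure D1:**
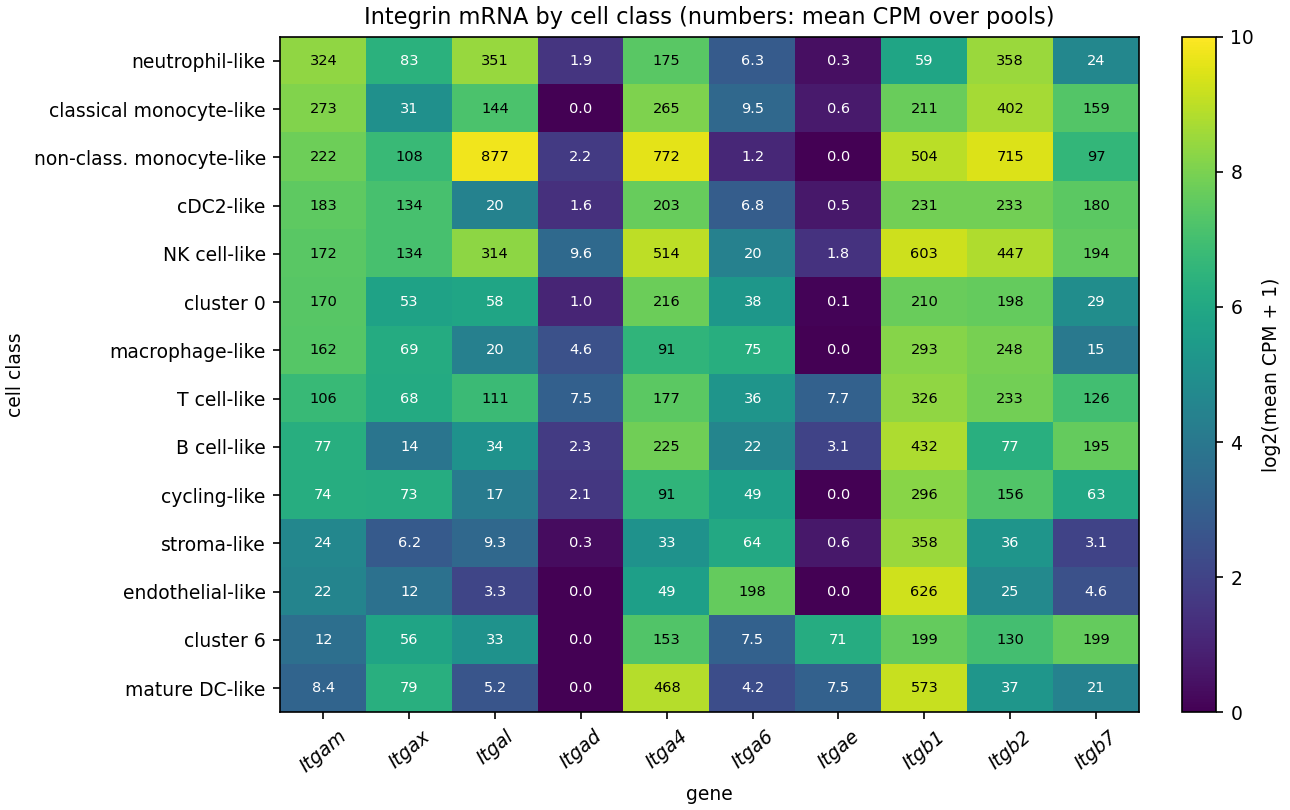
Mean level of the 10 integrin genes (columns) in 14 cell classes (rows) with at least 3 pools of 10 or more cells, classes in order of Itgam. Colour is log2(mean CPM + 1) and the printed number is the mean CPM over pools. Itgae stands out at 71 CPM in cluster 6, and Itgal at 877 CPM in non-classical monocyte-like cells.

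Itgam, the mRNA of the sorted antigen, spanned a wide range among the sorted cells. Among the 14 classes with at least 3 pools, neutrophil-like cells had the highest mean, 324 ± 87.9 CPM (SD, n = 6 pools), followed by classical monocyte-like cells at 273 ± 38.8 (n = 5), non-classical monocyte-like cells at 222 ± 46.1 (n = 6) and cDC2-like cells at 183 ± 25.3 (n = 6). NK cell-like cells stood at 172 ± 67.9 (n = 6), cluster 0 at 170 ± 12.7 (n = 5) and macrophage-like cells at 162 ± 29.2 (n = 6). The ranges of neighbours in this order overlapped down to macrophage-like cells, so these 7 are not separated from their neighbours by the spread of pools. Below a gap came T cell-like cells at 106 ± 22.6 and B cell-like cells at 76.7 ± 2.61 (n = 3 each). The lowest T cell-like pool, at 80.2 CPM, barely exceeded the highest B cell-like pool, at 79.0 CPM. Cycling cells at 74.3 ± 15.9 (n = 5) overlapped both, with up to 92.7 CPM. Stroma-like cells at 23.7 ± 8.28 (n = 6), endothelial-like cells at 22.0 ± 14.9 (n = 3), cluster 6 at 11.7 ± 6.47 and, last, mature dendritic cell-like cells with 8.41 ± 10.2 CPM (n = 4 each) overlapped each other and lay below all the rest. Without the cells of cluster 6 that had over 1% haemoglobin UMIs, its level was 6.79 ± 4.97 CPM. Outside this order, cluster 9, whose best marker score was for neutrophils but which stayed unnamed, had an Itgam level of 336 CPM in its only pool with 10 or more cells (106 cells).

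Among the mature dendritic cell-like cells, known for Ccr7 and migration to lymph nodes, no Itgam UMI was seen in the 17 cells of 3-month pool 3 or in the 13 cells of 15-month pool 3. Their other pools of 10 or more cells had 13.2 CPM (14 cells) and 20.5 CPM (45 cells). Cluster 6 had an Itgam UMI in 14.1% of its 198 cells at a median depth of 14454.5 UMIs, and in 2.53% once each cell was thinned to 2000 UMIs. At that thinned depth the share was 48.1% in neutrophil-like, 42.2% in classical monocyte-like, 33.9% in non-classical monocyte-like, 26.3% in cDC2-like, 25.8% in NK cell-like and 23.0% in macrophage-like cells (260 to 1321 cells used, 2 to 197 shallower cells left out). Neutrophil-like cells were shallow, with a median of 2096 UMIs, and 197 of 457 were left out. The unthinned shares were 50.3%, 81.2%, 57.6%, 71.5%, 41.6% and 57.2%. Many cells sorted by a CD11b gate had no Itgam UMI, which at this depth does not show that the mRNA was absent; protein was not measured in these files.

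**Figure D2:**
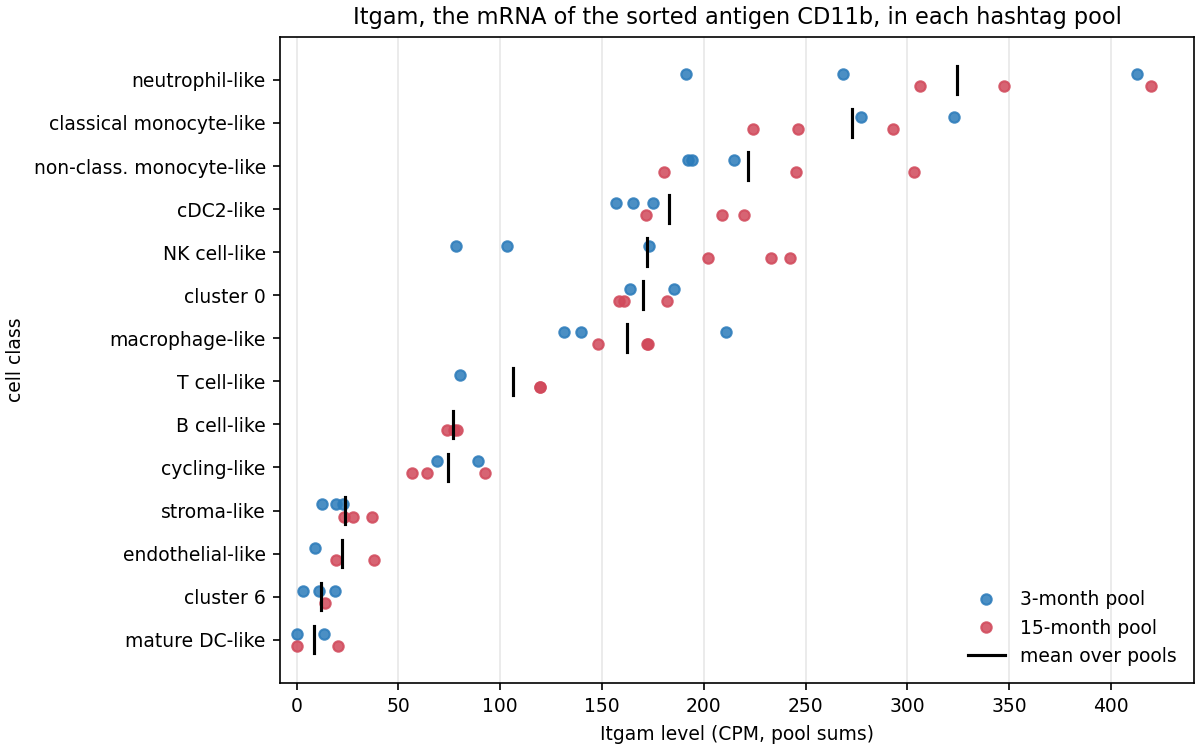
Itgam level (x axis, CPM) in 14 cell classes (y axis). Each point is 1 hashtag pool with at least 10 cells of the class, blue for 3 months and red for 15 months, and the black line is the mean over pools. Points run from 0 in mature dendritic cell-like pools to 420 in a neutrophil-like pool.

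Macrophage-like cells joined 4 clusters that differed widely in Itgam. Cluster 4 (956 cells, Vcam1, C1qa and Stab1) had the lowest level, 114 ± 28.9 CPM, and cluster 3 (264 cells, Gpnmb and Spp1) had 159 ± 49.1 (n = 6 pools each), with overlapping ranges. Cluster 12 (168 cells, Lipg and Fcgr4) had 226 and 254 CPM in its only pools of 10 or more cells, 15-month pools 1 and 3. Cluster 16, with 34 cells that expressed Saa3, Prg4, Alox15 and Serpinb2, had 1085 CPM in 15-month pool 1 (10 cells) and 993 CPM in 15-month pool 2 (18 cells), and all 34 cells had an Itgam UMI. These cells are few and 30 of the 34 came from the 15-month library, but their Itgam level exceeded every pool of at least 10 cells of every other class.

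In lymphocytes and stroma, Itgam was examined beside the UMIs of 7 genes of other myeloid cells (C1qa, C1qb, C1qc, Lyz2, Csf1r, S100a8 and S100a9) in the same cell. Among stroma-like cells with under 3 such UMIs, 1 of 114 had an Itgam UMI (0.877%, exact 95% interval 0.022% to 4.79%), against 80 of 198 with 3 or more (40.4%, 33.5% to 47.6%). The cells with more were also deeper, with a median of 15645 UMIs against 8966.5. Ptprc followed the same split, with a UMI in 3 of the 114 stroma-like cells low in myeloid UMIs (2.63%). Endothelial-like cells had Itgam in 1 of 43 and 7 of 20 cells (2.33% and 35.0%). T cell-like cells had it in 3 of 48 (6.25%, 1.31% to 17.2%) and 40 of 77 (51.9%, 40.3% to 63.5%), at medians of 3487 and 9237 UMIs. Intervals here cover counting error only.

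NK cell-like cells were unlike these. Of the 349 with under 3 myeloid UMIs, 145 had an Itgam UMI (41.5%, 36.3% to 46.9%), at a median depth of 3456 UMIs, and of the 38 with 3 or more, 16 had one (42.1%, 26.3% to 59.2%). B cell-like cells stood between, with 53 of 180 (29.4%, 22.9% to 36.7%) and 31 of 71 (43.7%, 31.9% to 56.0%) at medians of 5876.5 and 7962 UMIs. Restricted to cells low in myeloid UMIs, the Itgam level was 178 ± 83.0 CPM in NK cell-like cells (n = 6 pools), 69.8 ± 4.99 in B cell-like cells (n = 3) and 44.4 ± 38.7 in T cell-like cells (n = 2). It was 0 in all 5 pools of stroma-like cells with at least 10 such cells. Of the B cell-like cells, 236 of 251 came from the 15-month library, and none of the 11 low-myeloid B cell-like cells at 3 months had an Itgam UMI, which allows a share of cells with a UMI of up to 27.3%.

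The ratio of Itgam to Lyz2, the lysozyme gene of monocytes and macrophages, also differed among these classes. Itgam had 1.28 UMIs per 100 Lyz2 UMIs in macrophage-like cells, 1.13 in stroma-like, 1.36 in endothelial-like and 2.61 in T cell-like cells. It had 11.4 in B cell-like and 65.4 in NK cell-like cells. Other myeloid classes had 1.13 (classical monocyte-like), 2.22 (non-classical monocyte-like) and 11.6 (neutrophil-like). By this ratio B cell-like cells were therefore not set apart from neutrophil-like cells. Within each library the order of stroma-like, B cell-like and NK cell-like cells was kept: 1.31, 4.51 and 28.8 at 3 months and 1.07, 12.3 and 129 at 15 months. The 3-month B cell-like value rests on 6 Itgam UMIs in 2 of 15 cells, both with 3 or more myeloid UMIs. The part of free RNA and of joined cells in these shares was not tested.

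**Figure D3:**
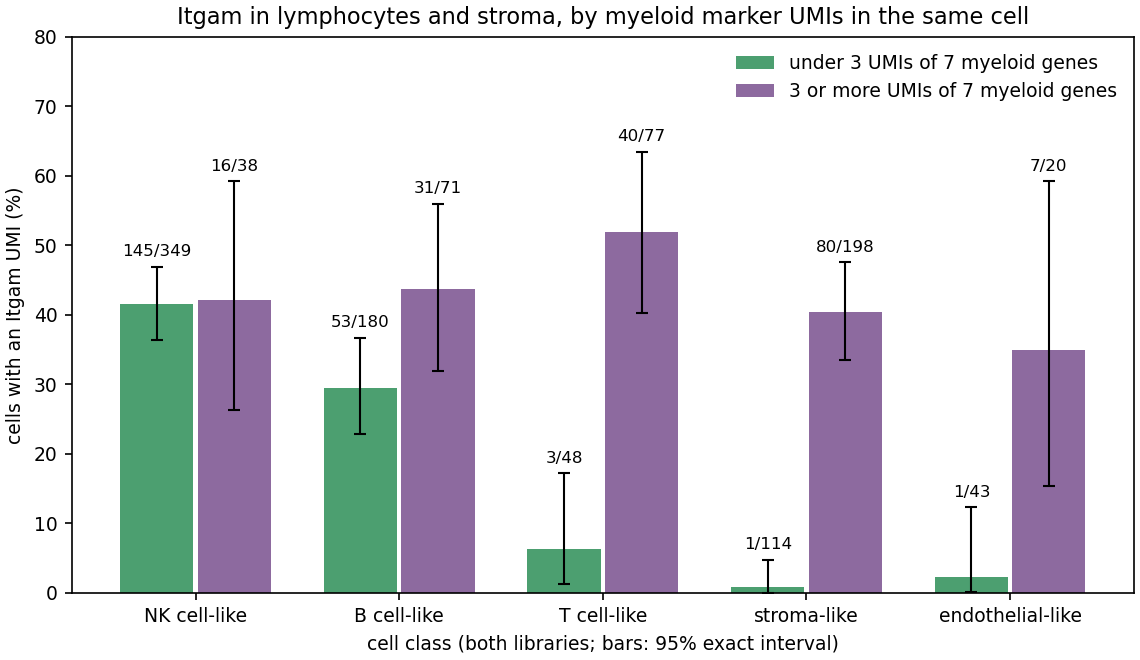
Share of cells with an Itgam UMI (y axis, %) in 5 classes (x axis), split by the UMIs of 7 myeloid marker genes in the same cell, green for under 3 and purple for 3 or more. Error bars are exact 95% intervals and the fractions give cells with a UMI over cells. The green bars of stroma-like and endothelial-like cells stand at 0.877% and 2.33%, and that of NK cell-like cells at 41.5%.

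Itgax, which encodes CD11c and is widely used to mark dendritic cells, was highest in cDC2-like cells at 134 ± 37.4 CPM and NK cell-like cells at 134 ± 44.1 (n = 6 pools each), followed by non-classical monocyte-like cells at 108 ± 24.3. Mature dendritic cell-like cells had 79.2 ± 13.6 CPM (n = 4) and cluster 6 had 56.4 ± 27.5 (n = 4). B cell-like cells at 13.7 ± 4.92 (n = 3), endothelial-like cells at 12.2 ± 10.6 (n = 3) and stroma-like cells at 6.18 ± 6.65 (n = 6) ended the order, and every pair of neighbours overlapped. Within macrophage-like cells the clusters again differed, with 413 and 304 CPM in the 15-month pools 1 and 3 of cluster 12, 91.9 ± 49.4 in cluster 3 and 29.8 ± 7.84 in cluster 4. In cluster 16 Itgax had 2 UMIs in 34 cells, beside 504 of Itgam.

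Itgal, the α chain of LFA-1 that leukocytes use to hold to ICAM-1, was highest in non-classical monocyte-like cells, at 877 ± 163 CPM. Its 6 pools there ran from 619 to 1084, above every pool of the next class, neutrophil-like cells at 351 ± 68.5. NK cell-like cells had 314 ± 72.7 and classical monocyte-like cells 144 ± 44.0 (n = 5). Macrophage-like cells had 19.6 ± 9.94 and cDC2-like cells 20.3 ± 9.77 CPM. Itgad, whose product is known on tissue macrophages, was scarce: 121 UMIs in 86 of all 5670 cells. Of these UMIs, 73 lay in 48 of the 168 cells of cluster 12, at 54.5 and 79.3 CPM in 15-month pools 1 and 3. In NK cell-like cells Itgad had 13 UMIs (9.64 ± 11.6 CPM, n = 6), and in classical monocyte-like cells it had 0 in 399 cells, which allows a share of cells with a UMI of up to 0.752% and sets no limit on cells that express it.

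Itgb2, the chain that all of these α chains need to reach the surface, was highest in non-classical monocyte-like cells at 715 ± 102 CPM (602 to 846, n = 6), with no overlap with the next class. NK cell-like cells had 447 ± 106, classical monocyte-like cells 402 ± 128, neutrophil-like cells 358 ± 108 and macrophage-like cells 248 ± 70.1. B cell-like cells, at 77.5 ± 8.57 CPM (n = 3), had about as many Itgb2 as Itgam UMIs. Mature dendritic cell-like cells at 37.1 ± 19.9 (n = 4), stroma-like cells at 35.8 ± 27.0 (n = 6) and endothelial-like cells at 25.2 ± 14.3 (n = 3) were lowest. In stroma-like cells low in myeloid UMIs Itgb2 was 1.34 ± 1.84 CPM (n = 5 pools), beside the 0 of Itgam.

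As shares of the UMIs of the 4 β2 partners, the α chains divided the classes into types. Itgal made up 72.4 ± 2.27% in non-classical monocyte-like cells and 50.6 ± 5.73% in NK cell-like cells. Itgam made up 63.7 ± 8.25% in macrophage-like, 61.0 ± 5.37% in B cell-like, 60.7 ± 5.06% in classical monocyte-like and 54.6 ± 8.39% in cDC2-like cells. Itgax made up 85.7 ± 13.2% in mature dendritic cell-like cells and 55.8 ± 10.4% in cluster 6, where Itgam made up 8.80 ± 10.2% and 11.8 ± 6.93%. Neutrophil-like cells had Itgal and Itgam at 46.3 ± 7.86% and 42.2 ± 8.20%, which differed by less than their spread. Among the β chains, Itgb2 made up 79.6 ± 10.9% in neutrophil-like and 54.3 ± 3.02% in non-classical monocyte-like cells. Itgb1 made up 95.2 ± 3.44% in endothelial-like, 90.2 ± 8.29% in stroma-like and 90.2 ± 7.21% in mature dendritic cell-like cells.

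**Figure D4:**
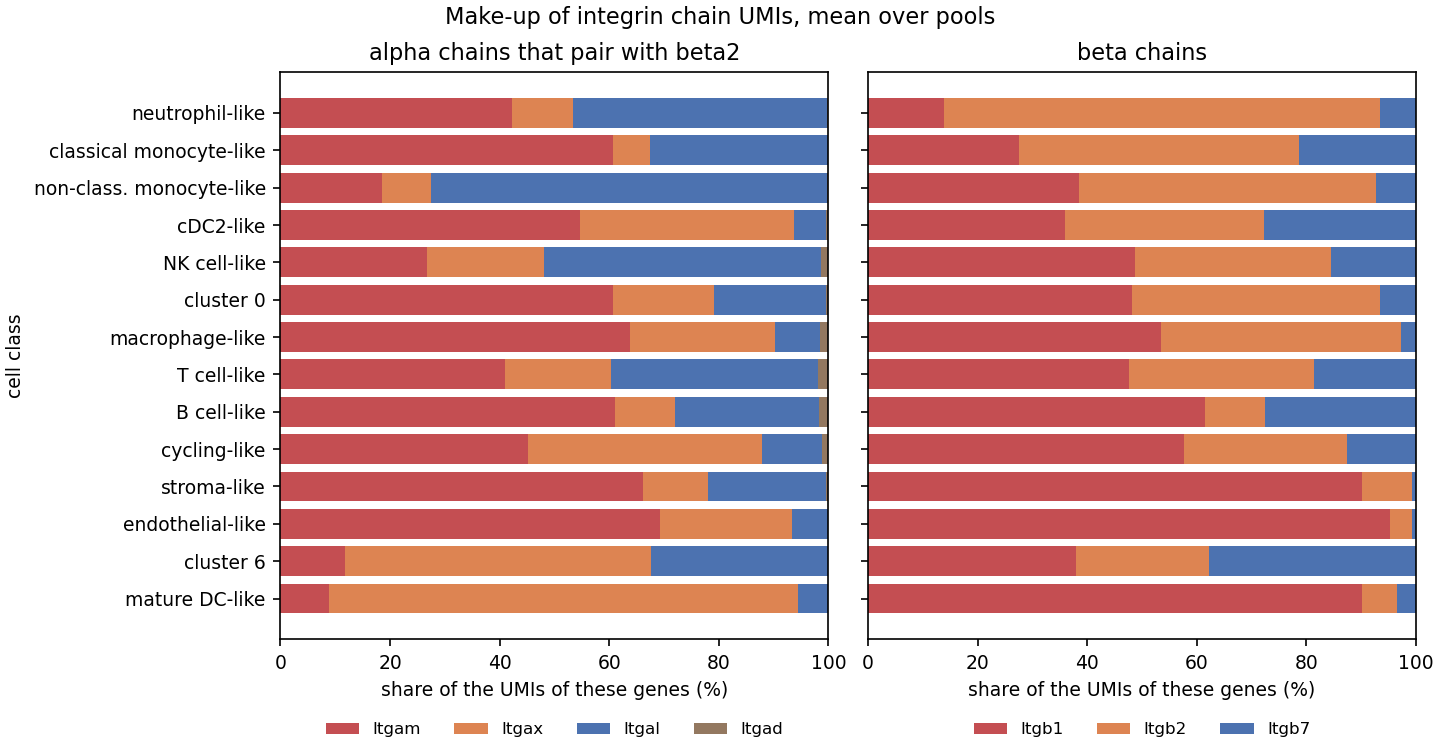
Left, share of each α chain among the UMIs of Itgam, Itgax, Itgal and Itgad, and right, share of each β chain among the UMIs of Itgb1, Itgb2 and Itgb7 (x axes, %), mean over pools, in 14 classes. Itgax takes 85.7% of the α chains in mature dendritic cell-like cells, and Itgb2 takes 79.6% of the β chains in neutrophil-like cells.

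Itga4, which guides monocytes and lymphocytes to VCAM-1, was highest in non-classical monocyte-like cells at 772 ± 193 CPM (n = 6). NK cell-like cells followed at 514 ± 170 (n = 6), then mature dendritic cell-like cells with 468 ± 94.2 (n = 4), and these 3 overlapped. Classical monocyte-like cells were spread, from 75.8 and 85.5 CPM in 3-month pools 1 and 2 to 281, 342 and 542 in the 15-month pools, and too few were in 3-month pool 3 (8 cells, 351 CPM) for them to be tested by age. B cell-like cells had 225 ± 1.77 CPM (n = 3), macrophage-like cells 91.4 ± 18.2 and stroma-like cells 32.9 ± 16.0. In stroma-like cells low in myeloid UMIs Itga4 was 3.98 ± 7.15 CPM (n = 5 pools).

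Itga6, the laminin receptor chain, was highest in endothelial-like cells, at 198 ± 15.2 CPM (n = 3), above every pool of the other classes in the order. Macrophage-like cells came next at 75.2 ± 24.5 and stroma-like cells at 64.2 ± 21.0 (n = 6 each). Non-classical monocyte-like cells, which led for Itgal, Itga4 and Itgb2, had an Itga6 level of 1.18 ± 2.89 CPM, with 0 in 5 of 6 pools. The 34 cells of cluster 16 were again apart, with 684 and 718 CPM in 15-month pools 1 and 2, and an Itga6 UMI in every cell. Their Itgb1 stood at 847 and 718 CPM and their Itgb2 at 1033 and 774.

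Itgae was nearly restricted to cluster 6 in these cells: 228 of its 274 UMIs, in 87 of 198 cells (43.9%, exact 95% interval 36.9% to 51.2%). Its pools with at least 10 cells held 86.1, 65.6 and 59.2 CPM at 3 months and 74.7 CPM in 15-month pool 2, all above every pool of the other classes in the order, of which T cell-like cells were next at 7.68 ± 7.79 (n = 3). Without the 21 cells over 1% haemoglobin, the mean moved from 71.4 ± 11.7 to 83.4 ± 14.2 CPM. Macrophage-like cells had no Itgae UMI in 1422 cells, which allows a share of cells with a UMI of up to 0.211%. Thinned to 2000 UMIs, 22 of the 198 cells of cluster 6 kept an Itgae UMI (11.1%), against 1 of 123 T cell-like cells. Its partner Itgb7 was also high in cluster 6, at 199 ± 17.7 CPM, but B cell-like cells at 195 ± 63.3 (n = 3), NK cell-like cells at 194 ± 40.6 and cDC2-like cells at 180 ± 46.4 overlapped it. Mast cell or basophil-like cells had an Itgb7 level of 327 CPM in their only pool with 10 or more cells.

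Itgb1, the most widely shared β chain, ran from 199 ± 29.6 CPM in cluster 6 to 626 ± 89.6 in endothelial-like cells, apart from neutrophil-like cells at 58.6 ± 24.3 (27.3 to 96.7, n = 6), which lay below every pool of the other classes in the order. NK cell-like cells had 603 ± 90.1 and mature dendritic cell-like cells 573 ± 117 CPM. Macrophage-like cells had 293 ± 30.2 and stroma-like cells 358 ± 77.9.

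Over the 13 named classes, the members were ranked by likeness of their mean levels (Spearman's ρ, a description over classes that share libraries). Itgb2 was most like Itgal (ρ = 0.896) and Itgam (0.879), and Itgal and Itgam were alike (0.852). Itga4 and Itga6 were most opposed (-0.819). Among 2762 genes with a mean of at least 50 CPM, those most like Itgam were Hcls1 (0.923), Cd53 (0.912), Cdk2ap2 (0.907), Hnrnph2 (0.896) and Sema4d (0.890). Those most like Itgal were Rassf5 (0.962), Diaph1 and Apbb1ip (0.951 each), Fmnl1 (0.940) and Ssh2 (0.929); Rassf5 and Apbb1ip encode partners of the small GTPase Rap1 in integrin activation. Itgax was followed by Skil (0.874), Irf1 (0.857), Bcl2a1d and Prex1 (0.852 each) and Bhlhe40 (0.835), and Itga4 by B4galnt1 (0.912), Malt1 (0.901), Myo1g (0.896), Otulin (0.857) and Taf10 (0.846). Itgb7 was followed by Baz1a (0.934), Sec11c (0.819), Rpl38 (0.813), Arhgap15 (0.808) and Cd69 (0.802). The 13 classes leave out cluster 6, which held 228 of the 274 Itgae UMIs. Itgae was near 0 in most of the 13, so its ranking rests on few UMIs and does not describe that peak. It was followed by Ctsw (0.891) and 4 genes of ribosomes or translation, Rpl19, Tpt1, Rpl27a and Rplp2 (0.780 to 0.814).

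The age comparison asked whether any integrin differed between 3 and 15 months within a class, by edgeR's quasi-likelihood test on UMI sums of the 3 pools of each age with Benjamini-Hochberg adjustment over all genes of the class and a threshold of 0.05. No member passed in all kept cells or in the 6 classes with at least 10 cells in every pool. Of the 9 members measured in all kept cells, 1 had an unadjusted p under 0.05 and 1 had pools that did not overlap between ages, where 0.0589% of 11882 genes passed, 16.8% had an unadjusted p under 0.05 and 25.6% did not overlap. DESeq2 also called 0 members in each of the 7 comparisons.

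In NK cell-like cells, Itgam had 172.9, 78.4 and 103.3 CPM in the 3-month pools and 242.4, 232.9 and 202.2 CPM in the 15-month pools. Every 15-month pool lay above every 3-month pool. The means were 118 ± 49.0 and 226 ± 21.0 CPM (SD, 3 pools at each age). The log2 ratio of 15 over 3 months was 0.89 (SE 0.24), and the edgeR adjusted p of 0.166 did not pass. The share of NK cell-like cells with an Itgam UMI was 25.7% of 175 at 3 months and 57.5% of 174 at 15 months among those low in myeloid UMIs, at medians of 2918 and 4031.5 UMIs. Thinned to 2000 UMIs, 13.7% of 168 (8.88% to 19.8%) and 40.1% of 197 NK cell-like cells (33.2% to 47.3%) kept one, an interval over cells that does not speak for animals. With stricter cell filters (at least 1000 genes and 2000 UMIs, at most 5% mitochondrial UMIs) the log2 ratio was 1.34 and the edgeR adjusted p 0.00757. Over all alternatives, run with edgeR or DESeq2, the adjusted p ran from 0.00757 to 0.439. The number of all genes past the threshold also moved with the setting, and the share under the stricter filters is not given here.

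Of the 7 members measured in NK cell-like cells, 6 had a positive log2 ratio, the exception being Itgb1. Itgax had 96.1, 104.6 and 100.2 CPM at 3 months and 211.3, 143.6 and 148.3 CPM at 15 months, and Itgal had 302.6, 287.6 and 190.9 against 397.8, 367.8 and 337.0 CPM. Neither gene overlapped between ages, and neither passed: log2 ratios were 0.69 and 0.53 (edgeR adjusted p 0.233 and 0.286). Itgb2 stood at 388 ± 122 and 506 ± 52.7 CPM (log2 ratio 0.37, SE 0.20, adjusted p 0.432) and Itgb1 at 612 ± 100 and 594 ± 99.7 CPM. Of the 7 measured, 3 had an unadjusted p under 0.05 and 3 had no overlap, where 0.296% of 2705 genes passed, 14.1% had an unadjusted p under 0.05 and 19.5% did not overlap. The median log2 ratio of the 7 was 0.45, against -0.003 for all 2705 genes. NK cell-like cells of the 3-month library were shallower, with a median of 3003 UMIs against 4089, and carried more Lyz2 (422 against 178 CPM); the part of these in the result was not tested.

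**Figure D5:**
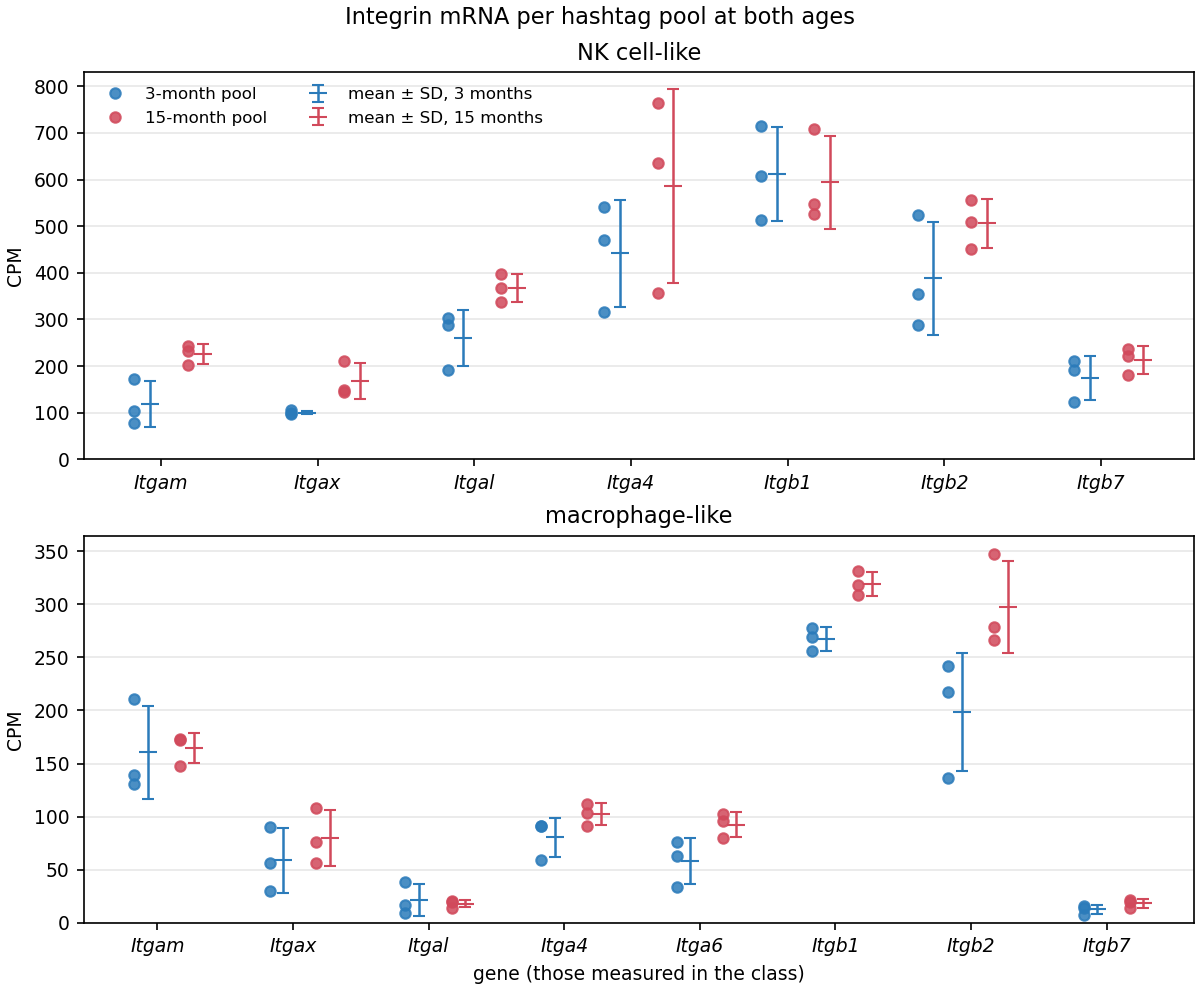
Level (y axis, CPM) of the members measured in NK cell-like cells (top) and macrophage-like cells (bottom), 1 point per hashtag pool, blue for 3 and red for 15 months, with mean ± SD beside them. In NK cell-like cells Itgam runs from 78.4 to 172.9 CPM at 3 months and from 202.2 to 242.4 CPM at 15 months; no gene shown passed the test.

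In macrophage-like cells, Itgam did not differ beyond the spread of pools: 131.1, 211.0 and 139.6 CPM at 3 months and 172.2, 148.0 and 172.8 CPM at 15 months (log2 ratio -0.02, SE 0.18, edgeR adjusted p 0.994). The sign of this value turned positive with other settings, up to 0.38 with the strict cell filter. The class joins clusters of unlike Itgam level and age make-up. Cluster 3 had 205.7, 210.2 and 189.0 CPM at 3 months and 97.3, 111.1 and 143.3 CPM at 15 months. Cluster 4 had 78.9, 160.1 and 123.7 against 94.8, 99.4 and 125.8 CPM. Clusters 12 and 16, with higher Itgam, held 8 and 4 cells at 3 months and 160 and 30 at 15 months. Single clusters were not tested by age, and the share of all genes without overlap was not counted in them, so these values show no age effect. In the class as a whole Itgb2, the member with the smallest p, had 217.2, 242.2 and 136.4 CPM at 3 months and 347.4, 266.2 and 278.8 CPM at 15 months, without overlap (log2 ratio 0.54, SE 0.21, adjusted p 0.367). Itga6 had 34.1, 76.5 and 63.2 against 95.5, 102.2 and 79.6 CPM (log2 ratio 0.58, adjusted p 0.380). Cluster 16 held 92 of its 188 UMIs in 15-month pool 1 (10 cells) and 206 of 578 in 15-month pool 2 (18 cells). A comparison without cluster 16 was not run. Itgb1 had 277.3, 255.6 and 269.1 against 331.1, 318.3 and 308.5 CPM (0.21, adjusted p 0.522). Itgb2, Itga6 and Itgb1, 3 of the 8 measured, had no overlap, and 2 members had an unadjusted p under 0.05. Of 8661 genes 0.104% passed, 11.5% had an unadjusted p under 0.05 and 19.3% did not overlap. Itgad was below the filter on low counts, which was on for the shares just given. Tested without that filter its log2 ratio was 4.90 (adjusted p 0.00131), from 0, 1 and 0 UMIs at 3 months and 10, 4 and 64 UMIs at 15 months, of which 72 of 78 lay in cluster 12; that cluster held 8 cells at 3 months and 160 at 15 months, 136 of them from 1 pool.

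In neutrophil-like cells, 5 members were measured and none had an unadjusted p under 0.05 or pools without overlap (0.274% of 1824 genes passed, 5.32% had such a p and 11.8% did not overlap). Itgam stood at 291 ± 112 and 358 ± 57.5 CPM (log2 ratio 0.23, SE 0.34, adjusted p 0.942) and Itgb2 at 310 ± 144 and 407 ± 37.5 CPM (0.25, SE 0.34, adjusted p 0.936). Itga4 had the smallest p, with 132 ± 66.3 and 218 ± 68.1 CPM (0.54, SE 0.40, adjusted p 0.870). The 3-month pool 2 held only 11 of these cells.

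In non-classical monocyte-like cells, the class with the most Itgal, Itga4 and Itgb2, these 3 did not differ beyond the spread of pools. Itgb2 stood at 714 ± 123 and 716 ± 105 CPM (log2 ratio -0.01, SE 0.15, adjusted p 0.999) and Itgam at 200 ± 12.7 and 243 ± 61.6 CPM (0.28, SE 0.20, adjusted p 0.648). Itgb7 had the smallest p, from 114.4, 74.7 and 36.8 to 93.5, 180.8 and 83.5 CPM, overlapping (0.82, SE 0.38, adjusted p 0.447). It was the 1 of 7 measured with an unadjusted p under 0.05; no member lacked overlap, where 0.37% of 3781 genes passed, 10.8% had such a p and 17.8% did not overlap.

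In stroma-like cells Itga4 had the smallest p, with 18.5, 11.96 and 29.2 CPM at 3 months and 53.0, 46.8 and 37.8 CPM at 15 months, without overlap (log2 ratio 1.08, SE 0.34, adjusted p 0.336). Itgb2 had 6.2, 14.3 and 30.8 against 45.2, 82.6 and 35.8 CPM (1.48, SE 0.51, adjusted p 0.353) and Itgam 12.3, 19.1 and 22.7 against 23.4, 36.9 and 27.9 CPM (0.67, SE 0.33, adjusted p 0.518). All 3 of the 5 measured lacked overlap, and 2 had an unadjusted p under 0.05, where 0.024% of 8329 genes passed, 10.6% had such a p and 16.7% did not overlap. The leukocyte UMIs in these cells moved with them: Lyz2 stood at 1544 CPM at 3 months and 2965 CPM at 15 months, and 58 of 124 against 140 of 188 stroma-like cells had 3 or more myeloid UMIs. Their part in the result was not tested. Itgb1 stood at 355 ± 83.3 and 361 ± 90.5 CPM.

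In cDC2-like cells Itga4 had the smallest p, with 179.4, 112.0 and 181.3 CPM at 3 months and 241.2, 292.3 and 212.3 CPM at 15 months (log2 ratio 0.60, SE 0.22, adjusted p 0.472). It was the 1 of 7 measured with an unadjusted p under 0.05 and without overlap, where 0.171% of 5278 genes passed, 9.36% had such a p and 16.4% did not overlap. Itgam stood at 166 ± 8.96 and 200 ± 25.2 CPM (0.19, SE 0.18, adjusted p 0.784) and Itgb2 at 214 ± 53.5 and 253 ± 25.3 CPM (0.22, SE 0.20, adjusted p 0.780). In all kept cells together, where the make-up of classes also enters, Itgam stood at 141 ± 30.8 and 152 ± 12.01 CPM (0.02, SE 0.16, adjusted p 0.977) and Itgb2 at 243 ± 99.9 and 267 ± 47.8 CPM (0.04, SE 0.29, adjusted p 0.977). Itga6 had the smallest p there, with 34.5 ± 8.15 and 53.5 ± 3.38 CPM (0.52, SE 0.16, adjusted p 0.216).

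Whether an age effect differed from that in macrophage-like cells was tested as an interaction with the pool as a block. No member passed for any of the 5 classes compared. For NK cell-like cells the difference of Itgam was 0.81 (SE 0.33, edgeR adjusted p 0.839), where 0% of 7757 genes passed and 446 had an unadjusted p under 0.05. For non-classical monocyte-like cells the difference of Itgb2 was -0.61 (SE 0.21, adjusted p 0.792), with 0.0126% of 7926 genes past the threshold. The share was 0.102% for neutrophil-like, 0.00915% for stroma-like and 0.0114% for cDC2-like cells.

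The partners of these integrins were taken as 3 lists. Of 28 activators and adaptors, 27 were measured in all kept cells and none passed (5 with an unadjusted p under 0.05), with a median log2 ratio of 0.14 against 0.02 for all genes. Of 23 ligands, 18 were measured and none passed (3 unadjusted, median -0.11), and of 16 other integrin subunits 8 were measured and none passed (1 unadjusted, median 0.15). Over all 11882 genes 0.0589% passed and 16.8% had an unadjusted p under 0.05. None of the members of these lists passed in any of the 6 classes either. In non-classical monocyte-like cells, which led for 3 of the 10 members, the most abundant gene of the activators and adaptors was Rap1b, the GTPase upstream of talin (1350 CPM). Tln1, talin itself (1140 CPM), and Cytip, a regulator of adhesion (875 CPM), followed. The other subunits highest in macrophage-like cells were Itgb5 (225 CPM), Itgav (59.7 CPM) and Itga9 (48.2 CPM), and in NK cell-like cells Itga2, known as the NK marker CD49b (109 CPM), Itga1 (57.5 CPM) and Itgav (44.3 CPM). Of the ligands, Spp1 (3101 CPM), Fn1 (359 CPM) and Vcam1 (246 CPM) were highest in macrophage-like cells, and Icam2 (337 CPM), Spp1 (291 CPM) and Fn1 (102 CPM) in endothelial-like cells. The endothelial-like cells also held Lyz2 at 2168 CPM, and 20 of 63 had 3 or more myeloid UMIs. The part of myeloid RNA in their Spp1 and Fn1 was not tested.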

How the data were processed

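RNA was counted per gene and barcode as UMI counts, which the authors deposited unnormalized; the matrix headers name Cell Ranger 4.0.0, while the submitters' processing notes name Cell Ranger 7.0.0, FastQC 0.11.4 and mm10. Pools were called from the hashtag counts with HTODemux (Seurat 5.3.0), and doublet and negative barcodes were left out. Kept cells were scaled to 10000 UMIs, log-transformed and clustered in scanpy 1.11.5 (2000 variable genes without the 10 integrins, 30 components, 15 neighbours, Leiden resolution 0.6, no integration of libraries). A cluster was named when at least 3 of its markers were seen in at least 20% of cells, and when its marker score reached 0.5 and exceeded the next set by 0.25 or more. It stayed unnamed where another set had more markers among its top 10 genes (cluster 6), or where its cells were shallow and none of its markers was there (cluster 9, whose median depth relative to its libraries was 0.318). Doublets within a pool were not removed, except as an alternative.

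UMIs were summed per pool and class. Ages were compared with edgeR 4.0.16 (filterByExpr, TMM, quasi-likelihood test, all pools of the class, no covariate, Benjamini-Hochberg adjustment) in R 4.3.3, in classes with at least 10 cells in all 6 pools. The procedure was also run on simulated counts with known changes. The share of changes it recovered is not given here, so its power with 3 pools at each age is left unstated. Pool depth ran from 2972982 to 22102248 UMIs. Intervals are exact (Clopper-Pearson, 95%), and the limit for a count of 0 is 3 counts of the total; both cover counting error only.

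All 10 members were named with levels. Age statistics were given for Itgam, Itgb2 and the member with the smallest p in each class, and further members whose pools did not overlap were chosen after their values were seen. For 6 members the 5 genes with the highest Spearman's ρ were named, and for the other lists the 3 most abundant genes of a class. The members and lists were chosen with earlier results of these data known. Alternatives were DESeq2 1.42.0, other scaling, no filter on low counts, the pool number as a block, each pool left out, other hashtag, cell, doublet and clustering rules, and thinning. Positions are from GENCODE M21.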

Additional observations from a re-analysis of the deposited data

How the results depend on the processing

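No member passed the threshold for age in any class under any alternative run, except for 1 in macrophage-like cells with no filter on low counts (Itgad, log2 ratio 4.90) and 1 in NK cell-like cells with the strict cell filter (Itgam, 1.34). In NK cell-like cells the Itgam log2 ratio ran from 0.72 to 1.34 over 17 alternatives. Among the recomputed log2 ratios 24 changed sign, in 5 pairs of gene and class. With 1 pool left out, Itgam ran from -0.15 to 0.12 and Itgb2 from -0.22 to 0.40 in all kept cells, Itgam from -0.14 to 0.21 in macrophage-like cells, Itgb2 from -0.0166 to 0.42 in neutrophil-like cells and Itgb2 from -0.14 to 0.13 in non-classical monocyte-like cells. Itgb2 in all kept cells was -0.0116 with the strict cell filter. Itgam in macrophage-like cells was 0.0276 without TMM, 0.159 with the hashtag ratio rule, 0.382 with the strict cell filter, 0.0438 without the highest scrublet scores, 0.291 at Leiden resolution 1.0 and 0.219 at 0.3. Itgb2 in non-classical monocyte-like cells was 0.0194 without TMM, 0.0300 with no filter on low counts, 0.0724 with the hashtag ratio rule, 0.0449 with the strict cell filter, 0.0755 at resolution 1.0 and 0.0442 with the integrins kept in the clustering. The cause of these sign changes was not tested.

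Of the levels, Itgam in B cell-like cells was 83.4 CPM with the strict cell filter, 71.2 without the highest scrublet scores and 69.8 without cells with myeloid UMIs. In T cell-like cells it was 47.1 and 44.4 CPM under the latter pair. In stroma-like cells it was 41.6 CPM with the hashtag ratio rule and 0 without cells with myeloid UMIs. The scrublet alternative left out barcodes by rank and was chosen after seeing the data, since scrublet's own threshold marked 1 and 4 barcodes; leaving out cells over 1% haemoglobin was also chosen then.

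With the replicate block, 0 members passed in every class. Deviations of pools with the same number correlated at 0.047, -0.001 and 0.205, and those of pools with unlike numbers at -0.22 to 0.151. With only 3 pools at each age this cannot decide whether the numbers pair the pools. Counts over all genes moved more, from 0 to 250 in all kept cells, 6 to 266 in macrophage-like, 4 to 24 in neutrophil-like, 5 to 85 in NK cell-like, 3 to 45 in non-classical monocyte-like, 1 to 81 in stroma-like and 6 to 130 in cDC2-like cells. The strict cell filter gave no value for neutrophil-like cells, resolution 1.0 and the scrublet alternative none for stroma-like cells and resolution 0.3 none for cDC2-like cells.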

Other observations

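Genes of NK cell maturation were read beside Itgam after their values had been seen, as a description over cells with no test. At 15 months, 67 of 91 NK cell-like cells with a UMI of Klrg1, a receptor of mature NK cells, also had one of Itgam (73.6%, exact 95% interval 63.3% to 82.3%), against 45 of 111 without Klrg1 (40.5%, 31.3% to 50.3%). At 3 months the shares were 11 of 47 (23.4%) and 38 of 138 (27.5%), at median depths of 2797 and 3072 UMIs. Klrg1 stood at 114 ± 55.6 CPM at 3 months and 219 ± 65.5 CPM at 15 months (SD, n = 3 pools each), with overlapping ranges. At 15 months Itgam was seen in 43.1% of the 116 cells with the chemokine gene Xcl1 and 72.1% of the 86 without it, and in 33.3% of the 36 cells with Itga1, the α chain CD49a of tissue-resident NK and innate lymphoid cells, against 60.2% of the 166 without it. At 3 months the order for Itga1 was the other way, with Itgam in 5 of 12 cells (41.7%) with Itga1 and 44 of 173 (25.4%) without, and for Xcl1 it was 22.7% of 128 with and 35.1% of 57 without. Median depths of the cells compared at 15 months lay between 3881 and 4285 UMIs for Klrg1, 4003.5 and 4090.5 for Xcl1, and 4040.5 and 4242.5 for Itga1. Cx3cr1, Itga2, Cd27 and Cd7 were read as well. At 3 months Itgam was seen in 10 of 13 cells with Cx3cr1 (76.9%, 46.2% to 94.96%) and 39 of 172 without (22.7%). At 15 months it was seen in 32 of 49 with Cx3cr1 (65.3%) and 80 of 153 without (52.3%). For Itga2 the share was also higher in cells with the gene at both ages. For Cd27 and Cd7 it was lower in cells with the gene at both ages.

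Among the 251 B cell-like cells, 99 had a UMI of Bhlhe41 and 103 of Zbtb32, both known from B-1 cells, 99 of Cd9, 48 of Spn (CD43) and 11 of Cd5. Of genes of follicular and marginal zone B cells, Ighd had a UMI in 100 cells, Fcer2a in 7 and Cr2 in 3. Itgam was seen in 39.4% of those with Bhlhe41 and 29.6% of those without, at median depths of 8001 and 5342.5 UMIs. The shares with and without the gene were 39.8% and 29.1% for Zbtb32, 43.75% and 31.03% for Spn, and 35.4% and 32.2% for Cd9. For Cd5 the order was the other way, with 2 of 11 cells (18.2%) against 82 of 240 (34.2%). For Ighd the share was also lower in cells with the gene. For each of the genes compared here, the exact 95% intervals with and without it overlapped.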
